A study of Caenorhabditis elegans with 7 samples.

Results

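The genes described here encode conjugating enzymes of Caenorhabditis elegans, and were taken as all rows of the deposited value table whose annotation holds a single gene symbol starting with ugt- or gst-. There are 11 such genes among 1290 table rows, of which 961 carry a gene symbol. They are 7 UDP-glucuronosyltransferase genes (ugt-2, ugt-8, ugt-19, ugt-47, ugt-51, ugt-54 and ugt-63) and 4 glutathione S-transferase genes (gst-7, gst-12, gst-21 and gst-35). The WBcel235 gene table lists 67 ugt and 44 gst genes, and the others were not analysed here. By their values, 9 of the 11 rows each match 1 spot of the arrays, while the rows of gst-7 and gst-21 each match the mean of 2 spots.

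Whole larvae at the first larval stage (L1) were compared between an ahr-mutant strain (4 samples), described as lacking a functional ahr gene, and the wild type (3 samples), called N2 in the series description. Both strains were hatched from harvested eggs on plates with E. coli and liquid, and no compound is named. The labels give no allele, clone or number of animals, and do not state separate cultures for the wild type, so the tests rest on the spread among these samples, which may be technical. Each RNA was labelled with Cy3 and read on a 1-colour spotted array.

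UDP-glucuronosyltransferases attach a sugar to lipophilic compounds, and glutathione S-transferases attach glutathione to electrophilic ones. Both make their substrates more soluble, and the products are then carried out of the cell by export pumps, after cytochrome P450 enzymes have often first oxidized the compound. In vertebrates the ahr counterpart is a transcription factor switched on by aromatic ligands, and it induces P450, UDP-glucuronosyltransferase and glutathione S-transferase genes. The worm protein, encoded by ahr-1, is best known for roles in neurons. The worm intestine is a main site of detoxification.

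Each array has 23232 spots, of which between 21942 and 22593 gave a signal above 0, with medians from 52277 to 90919 intensity units. The file of ahr-mutant replicate 1 lists its spots in another order than the other 6 files, and 21055 spots (90.6%) could be placed, including all 9 genes with a spot of their own. In 6 of these 9 the placing equals that of positions known from exact table values on both sides, whereas for ugt-8, ugt-63 and gst-35 it rests on signal alone, so differences are also given without this array. The strain difference drifted along the slide. Among spots that the deposited table does not use, the median log2 difference went from -0.44 in slide row 1 of print blocks to 0.50 in slide row 12. Values are therefore given both quantile normalized and with a local position adjustment, which subtracts from each array the median deviation of the spots in a window 21 spots wide around the gene. No named spot belongs to ahr-1 or to the intestinal markers, and neither was analysed here. In whole larvae, fewer cells of a type and less RNA per cell cannot be told apart.

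Of the 9 conjugating-enzyme genes with their own spot, 7 had lower and 2 had higher mean signals in the ahr-mutant larvae. Lower means were also found in 48.8% of all spots tested and in 60.6% of the 772 other named table spots. Folds of the 9 genes lay between 1.28 and 2.27. None passed the test across all spots: 0 of 9 had a limma adjusted p under 0.05, against 0.00888% of the 22511 spots tested, and adjusted p lay between 0.597 and 0.737. At an unadjusted limma p under 0.05 there were 4 of 9 genes (ugt-8, ugt-2, ugt-54 and ugt-63, all lower), against 7.53% of all spots and 63.6% of the 772 other named table spots. This count was 2 without ahr-mutant replicate 2, and also 2 without wild-type replicate 1, 2 or 3, each left out alone. It was 1 with no scaling between arrays, and 1 with the median of each print block subtracted. The strains did not overlap in 6 of 9 genes, against 9.94% of all spots and 79.4% of the other named table spots. How the authors chose the rows of their table is not stated, and most named table spots separate the strains, so the counts for these genes are no evidence particular to them. Their median log2 difference was -0.57, against 0.02 over all spots and -0.52 over the other named table spots.

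**Figure D1:**
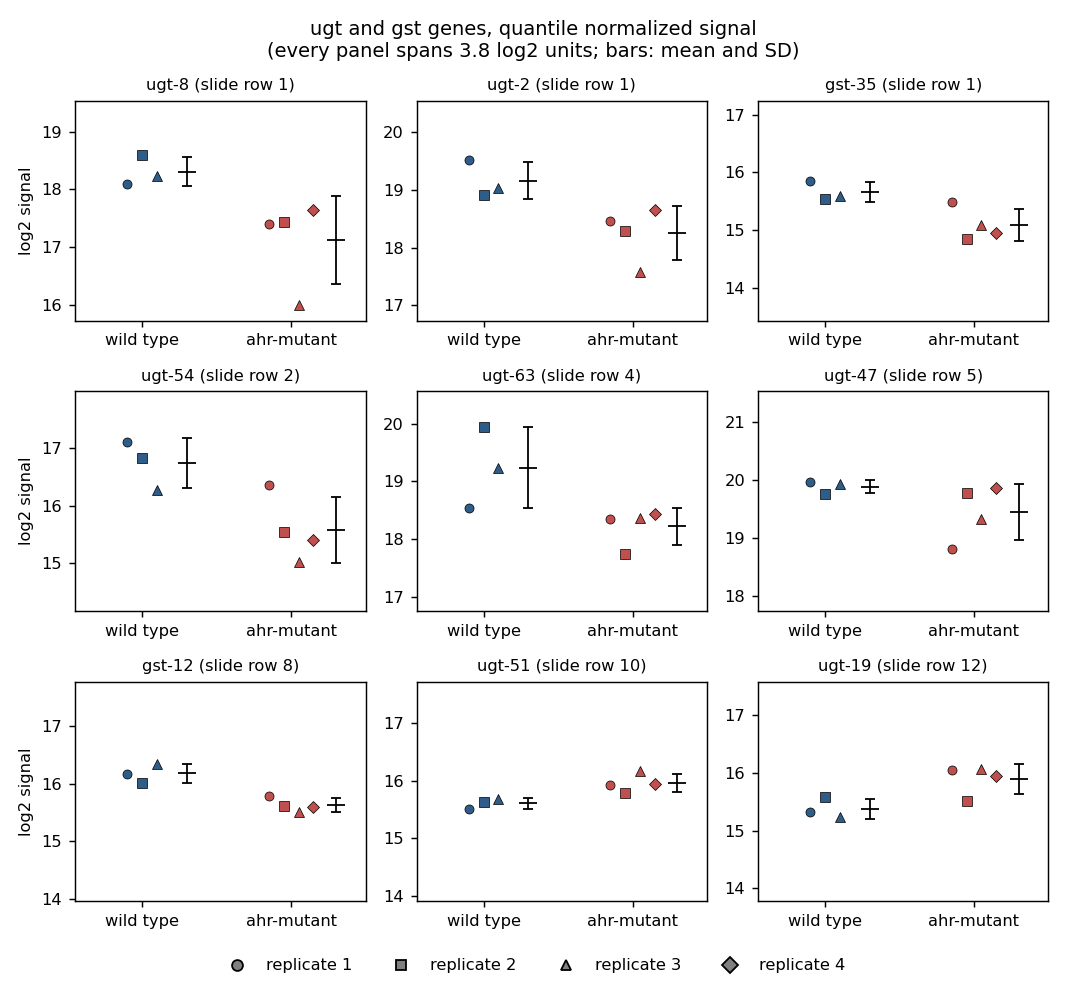
Quantile normalized log2 signal (log2 of intensity units) of the 9 ugt and gst genes with their own spot on each array, by strain, with the mean and SD beside the points (n = 3 wild type and n = 4 ahr-mutant). The genes of slide rows 1 to 8 have lower mutant means, and ugt-51 and ugt-19, in slide rows 10 and 12, have higher ones.

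Among the UDP-glucuronosyltransferase genes ugt-8 had the largest fold. Its normalized log2 signal was 17.40, 17.44, 15.99 and 17.65 in ahr-mutant replicates 1 to 4, and 18.09, 18.59 and 18.24 in wild-type replicates 1 to 3. All 4 mutants were below every wild type, and mutant replicate 3 lay far below the other mutants. The difference was -1.19 ± 0.44 on the log2 scale (SE), or 2.27-fold lower (limma adjusted p = 0.622; two-sided exact permutation p = 0.0571 over 35 splits, whose smallest possible p is 0.0286). It was 2.43-fold lower without mutant replicate 1. With any 1 array left out the log2 difference ran from -1.36 to -0.81, the smallest being without mutant replicate 3. The local position adjustment moved the fold by more than 1.5 times, to 1.49-fold lower, and the spots around ugt-8 themselves differed by -0.61.

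ugt-54 lay at 16.36, 15.54, 15.02 and 15.40 in the 4 mutants and at 17.11, 16.83 and 16.27 in the 3 wild types. Mutant replicate 1 was above wild-type replicate 3, so the strains overlapped by that pair. The gene was 2.23-fold lower in the mutants (log2 difference -1.15 ± 0.41, SE; limma adjusted p = 0.597; exact permutation p = 0.0857). Without mutant replicate 1 it was 2.67-fold lower and the strains no longer overlapped (limma adjusted p = 0.327). That was the largest difference with any 1 array left out, over which ugt-54 ran from -1.42 to -0.97 (log2). Adjusted for local position it was 1.60-fold lower, the largest such fold among the 9 genes, and the mutant SD went from 0.57 to 0.10 while the wild-type SD went from 0.43 to 0.56.

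ugt-63 had mutant values of 18.35, 17.75, 18.37 and 18.44 against 18.54, 19.94 and 19.23 in the wild type. The strains were separate, but mutant replicate 4 and wild-type replicate 1 nearly met, and the wild types were spread widely (SD 0.70, n = 3). ugt-63 was 2.01-fold lower (log2 difference -1.01 ± 0.40, SE; limma adjusted p = 0.641; exact permutation p = 0.0286). It was 2.07-fold lower without mutant replicate 1. Over the fits with 1 array left out, ugt-63 differed by -1.36 to -0.66 (log2), the smallest being without wild-type replicate 2. After the local position adjustment it was 1.46-fold lower and the strains overlapped.

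The gene ugt-2 was at 18.45, 18.29, 17.58 and 18.65 in the mutants and at 19.53, 18.92 and 19.04 in the wild type. No mutant reached the lowest wild type, and mutant replicate 3 was again the lowest. The difference was -0.92 ± 0.37 (log2, SE), or 1.89-fold lower (limma adjusted p = 0.641; exact permutation p = 0.0571), and 1.98-fold lower without mutant replicate 1. Leaving out any 1 array gave log2 differences from -1.05 to -0.69, the smallest being without mutant replicate 3. Adjusted for position, the 4 mutants lay within 18.39 to 18.60, at an SD of 0.09 in place of 0.47, and all were below the 3 wild types at 18.75 to 19.10. Its position-adjusted mean was 1.40-fold lower (limma adjusted p = 0.810).

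For ugt-47 the mutants gave 18.81, 19.78, 19.33 and 19.86 and the wild types 19.97, 19.76 and 19.93. The strains overlapped, since mutant replicates 2 and 4 lay above wild-type replicate 2. Its mean was 1.36-fold lower in the mutants (log2 difference -0.44 ± 0.36, SE; limma adjusted p = 0.728; exact permutation p = 0.229), and 1.17-fold lower without mutant replicate 1. Its 95% interval of the log2 difference ran from -1.24 to 0.36.

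The remaining UDP-glucuronosyltransferase genes had higher means in the mutants. ugt-51 was at 15.93, 15.79, 16.17 and 15.95 in the mutants and at 15.51, 15.63 and 15.68 in the wild type, with every mutant above every wild type. Its log2 difference was 0.35 ± 0.30 (SE), or 1.28-fold higher (limma adjusted p = 0.737; exact permutation p = 0.0571). ugt-19 was at 16.05, 15.52, 16.07 and 15.95 against 15.32, 15.58 and 15.24. Mutant replicate 2 lay below wild-type replicate 2, so these strains overlapped. ugt-19 was 1.44-fold higher (log2 difference 0.52 ± 0.31, SE; limma adjusted p = 0.691; exact permutation p = 0.0857). Around ugt-51 and ugt-19 the other spots differed by 0.25 and 0.42, and with the local position adjustment the genes were 1.08-fold and 1.07-fold higher with overlapping strains.

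Both glutathione S-transferase genes with their own spot had lower means in the mutants. gst-12 was at 15.79, 15.61, 15.51 and 15.59 in the mutants and at 16.16, 16.02 and 16.34 in the wild type. All mutants lay below all wild types, and both strains were tight, with SDs of 0.12 (n = 4) and 0.16 (n = 3). gst-12 was 1.46-fold lower (log2 difference -0.55 ± 0.30, SE; limma adjusted p = 0.691; exact permutation p = 0.0286), and 1.52-fold lower without mutant replicate 1. It was the only one of the 9 genes whose surrounding spots differed in the opposite direction, by 0.08. Adjusted for local position gst-12 was 1.55-fold lower (log2 difference -0.63 ± 0.28, SE; 95% interval -1.25 to -0.02; limma adjusted p = 0.716; exact permutation p = 0.0286), still with separate strains. The mutant SD went from 0.12 to 0.27 and the wild-type SD from 0.16 to 0.07. With no scaling between arrays the log2 difference of gst-12 was -0.11 (limma adjusted p = 0.905), where the median of all spots was 0.40.

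gst-35 had mutant values of 15.48, 14.85, 15.08 and 14.94 and wild-type values of 15.86, 15.55 and 15.59. Mutant replicate 1 came close to the lowest wild type, and no values overlapped. It was 1.49-fold lower (log2 difference -0.57 ± 0.32, SE; limma adjusted p = 0.691; exact permutation p = 0.0571), and 1.63-fold lower without mutant replicate 1. Its log2 difference ran from -0.71 to -0.48 when any 1 array was left out. The gene was among the dimmest spots of the arrays. In the wild type alone ugt-51 and ugt-19 were dimmer, with mean log2 signals of 15.61 and 15.38 against 15.66 for gst-35. After the local position adjustment the strains overlapped for gst-35, and it was 1.17-fold lower (exact permutation p = 0.629). Its SD went from 0.28 to 0.55 in the mutants and from 0.17 to 0.53 in the wild types.

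**Figure D2:**
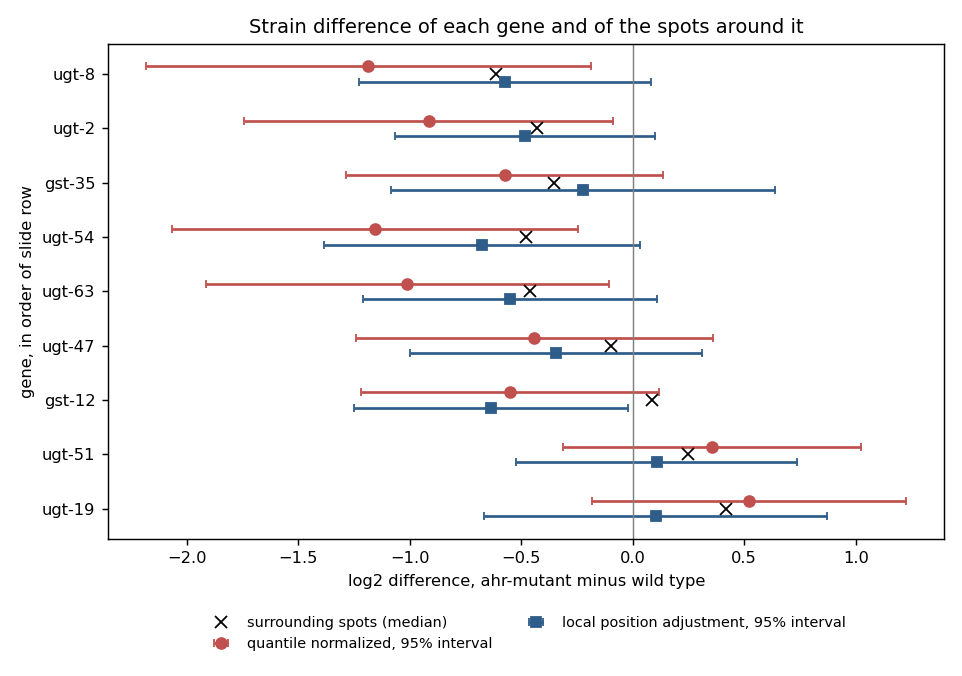
Log2 difference, ahr-mutant minus wild type, of the 9 genes in order of slide row, quantile normalized (circles) and with the local position adjustment (squares), with 95% intervals from limma; crosses mark the strain difference of the surrounding spots outside the table. The adjusted points of ugt-8, ugt-2, ugt-54 and ugt-63 lie nearer to 0 than the unadjusted ones, at -0.57, -0.48, -0.68 and -0.55, gst-12 moves away from 0, and those of ugt-51 and ugt-19 lie near 0.

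The surrounding spots differed in the direction of the gene in 8 of 9 cases. Slide row 1 held ugt-8, ugt-2 and gst-35, and there 60 of 61 named table spots had a lower mutant mean. ugt-51 and ugt-19 lie in slide rows 10 and 12, where 3 of 81 and 2 of 64 did. In slide row 8, that of gst-12, 20 of 33 named table spots were lower while the median of the spots outside the table was 0.10. What part the slide position had in the differences of single genes was not tested.

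**Figure D3:**
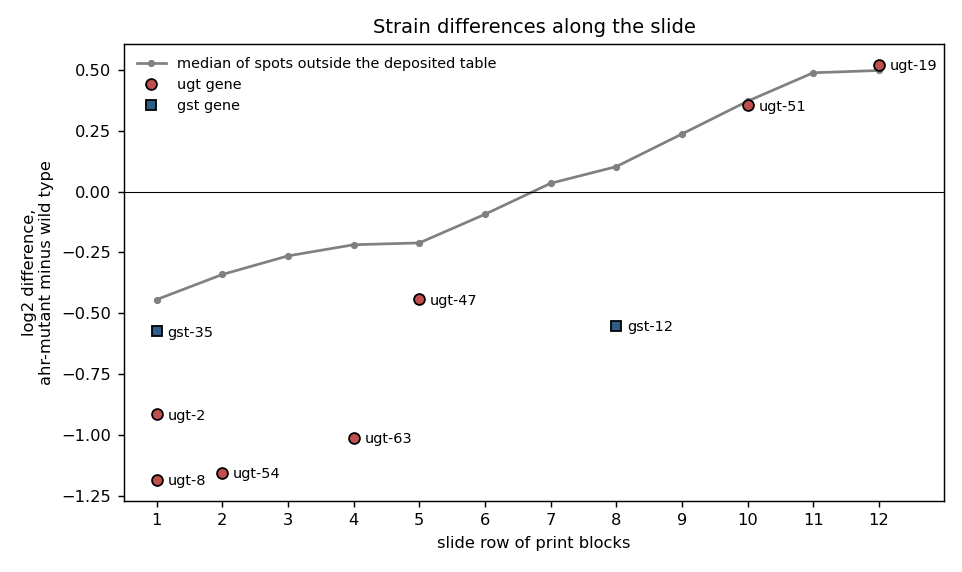
Log2 difference, ahr-mutant minus wild type, against the slide row of print blocks, for the 7 ugt genes (circles) and 2 gst genes (squares), with the median over spots outside the deposited table as a line. ugt-51 and ugt-19 sit on the line, gst-35 lies just below it, and ugt-8, ugt-54, ugt-63 and gst-12 lie further below it.

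After the position adjustment all 9 genes kept their direction and folds lay between 1.07 and 1.60. Their median log2 difference was -0.48, against -0.27 for the other named table spots. At an unadjusted limma p under 0.05 there was 1 of 9 genes (gst-12), against 6.85% of all spots. The strains were separate in 3 of 9 (ugt-8, ugt-2 and gst-12), against 9.13% of all spots. With the adjustment, these shares were not computed for the other named table spots. The counts are therefore no evidence particular to these genes. Limma adjusted p of the 9 genes lay between 0.716 and 0.972.

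**Figure D4:**
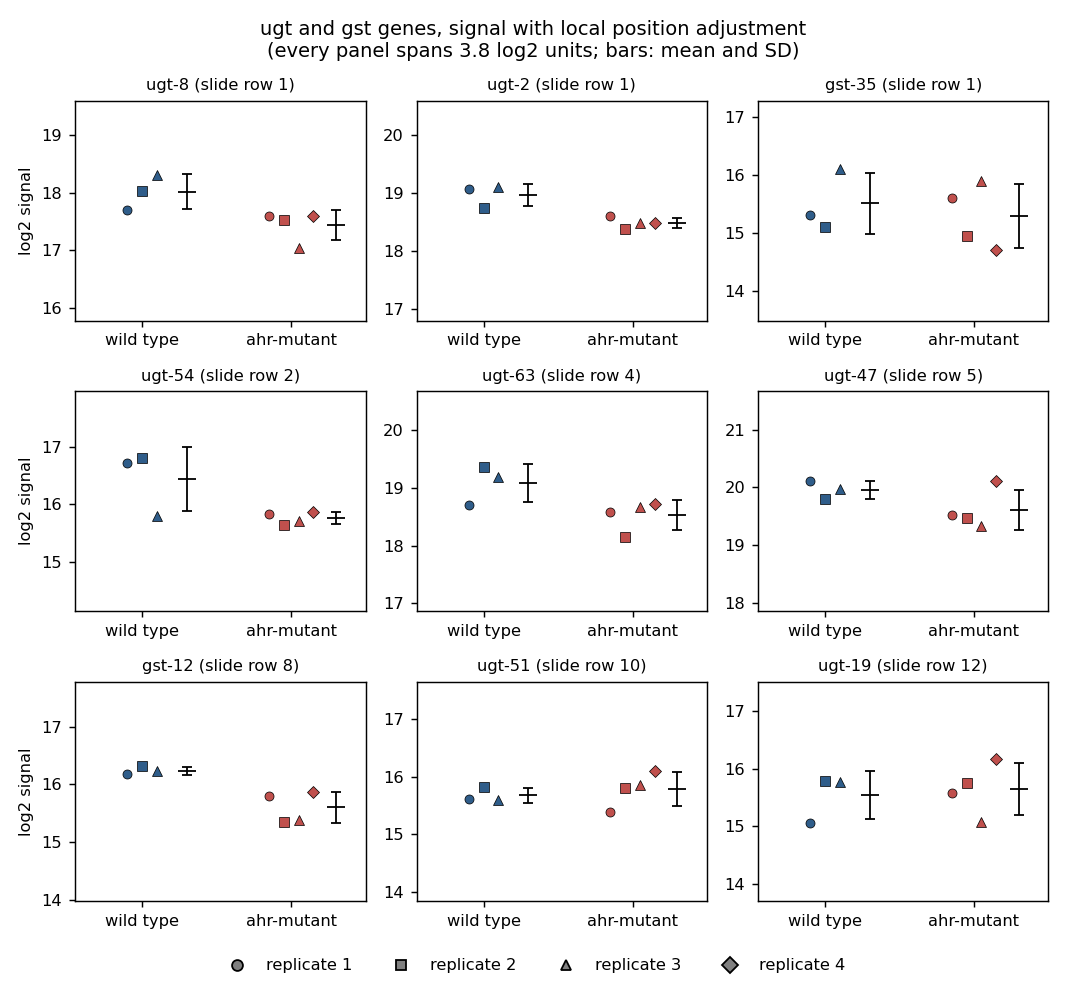
Log2 signal (log2 of intensity units) of the same 9 genes on each array with the local position adjustment, by strain, with the mean and SD (n = 3 wild type and n = 4 ahr-mutant). The mutants stay below the wild types for ugt-8, ugt-2 and gst-12, and the strains overlap in the other 6 genes.

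ahr-mutant replicate 1 has a deposited table value in only 538 of all 1290 rows. It has none for 8 of the 11 genes, the 7 with lower means and gst-7. Read from its placed spots, it lay below every wild type in 6 of the 7 genes with lower means, the exception being ugt-54. For ugt-8, ugt-63 and gst-35 the placing rests on signal alone. With the local position adjustment its gst-35 value, 15.61, was above wild-type replicates 1 and 2, at 15.32 and 15.10. The means include this array, though the same 7 genes had lower means without it. The share of other spots in which it lay so low was not computed. The count is therefore no evidence particular to these 7 genes. In the authors' deposited table, which has the other 3 mutants for these genes, ugt-8 had ratios of 0.969, 0.338 and 0.937 against 1.94, 2.19 and 1.47 in the wild type. The ratio of ugt-54 was 0.599, 0.363 and 0.587 against 1.97, 1.48 and 1.00. All 6 wild-type ratios of ugt-8 and ugt-54 exceeded every mutant ratio of the same gene. For ugt-54 the placed signal of the missing array, at 16.36 (normalized log2), was above wild-type replicate 3 at 16.27. Quantile normalized, 79.4% of the other named table spots had separate strains. On the log2 scale the table's differences were -1.45 for ugt-8, -1.51 for ugt-54 and -0.63 for gst-12.

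The table rows of gst-7 and gst-21 cannot be assigned to a spot. The row of gst-7 equals the mean of 2 spots, and the same values are also given for axl-1, an axin-like gene. Its deposited ratios were 0.916, 0.634 and 0.995 in ahr-mutant replicates 2 to 4 and 2.00, 1.56 and 1.11 in the wild type, so the mutants lay below. The mean log2 ratio was -0.26 ± 0.35 (SD, n = 3) in the mutants and 0.60 ± 0.42 (SD, n = 3) in the wild type. Of the spots behind it, the one in slide row 1 differed by -0.91 and the one in slide row 2 by -0.51, both with overlapping strains (limma adjusted p of 0.691 and 0.705).

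The row of gst-21 equals the mean of another 2 spots, with the same values given for cest-35.2. Its ratios were 1.95, 0.944, 2.13 and 1.51 in the 4 mutants and 0.573, 0.587 and 1.00 in the wild type, and they overlapped because mutant replicate 2 lay below wild-type replicate 3. The mean log2 ratio was 0.64 ± 0.53 (SD, n = 4) in the mutants and -0.52 ± 0.45 (SD, n = 3) in the wild type. Its spots behaved differently from each other: the one in slide row 3 differed by -0.16 with overlapping strains (limma adjusted p = 0.957), and the one in slide row 10 by 1.89, with all mutants above all wild types (limma adjusted p = 0.334). Which of the spots, if either, holds the gst-21 probe is not known here. Rows of this kind number 151 in the table and rest on 72 pairs of spots, each pair given to 2 or 3 rows, and over the pairs the mean levels of both spots had a Pearson r of 0.26.

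**Figure D5:**
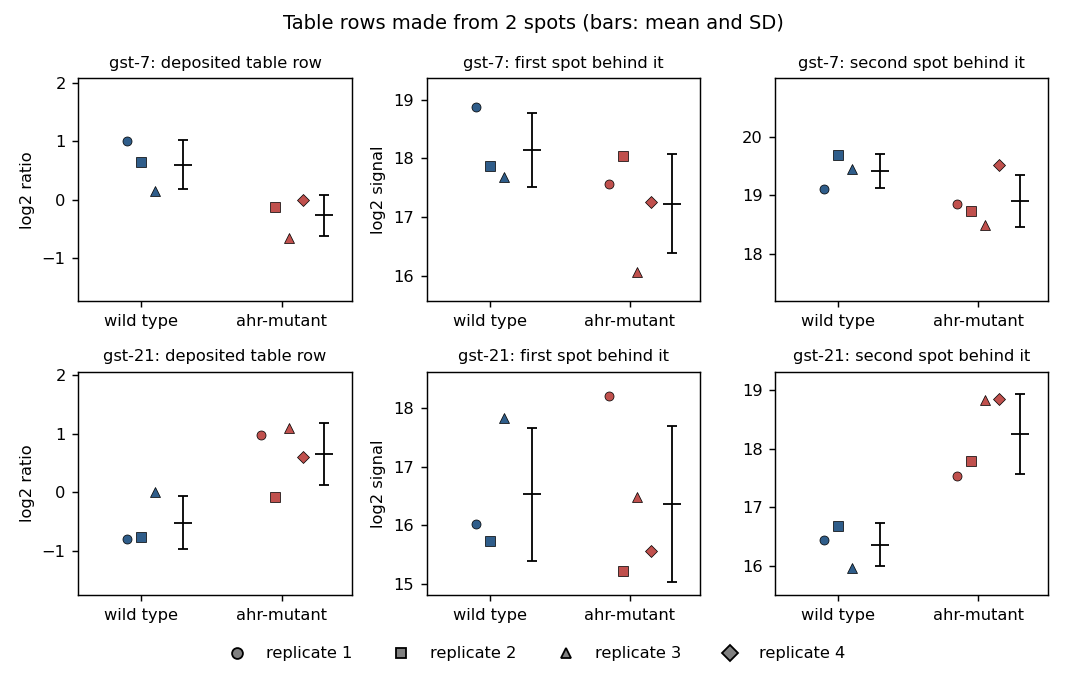
Deposited table rows of gst-7 and gst-21 (log2 ratio, left) and the quantile normalized log2 signal (log2 of intensity units) of the 2 spots whose mean each row equals, by strain, with the mean and SD (n = 4 ahr-mutant, n = 3 wild type; the table row of gst-7 has no value of ahr-mutant replicate 1). For gst-21 the strains are separate in the second spot and mixed in the first.

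The 7 genes with lower means varied alike to different degrees. Over the 7 arrays the Pearson r of their normalized log2 signals had a median of 0.62 over 21 pairs of genes and ran from 0.07 to 0.90. After the position adjustment r ran from -0.27 to 0.83, with a median of 0.54. All pairs share the same arrays and the strain contrast. The 7 genes were grouped by the direction of that contrast, so a positive median r is partly built in. No other set of genes with lower means was compared. The named table gene with the most similar profile lay in the same or a neighbouring slide row for 7 of the 9 genes, among them scrm-4 for ugt-8 (Pearson r = 0.997, both in slide row 1) and rpb-11 for ugt-51 (r = 0.971, both in slide row 10). For gst-12 it was dpy-14, 6 slide rows away (r = 0.993 over 6 arrays), and for ugt-19 it was cwp-4, in slide row 10 (r = 0.991 over 6 arrays). Each r is the highest found among all other named table spots over few arrays, so a high value is built in. How often other named spots had so near a match was not computed.

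By the order of protein-coding genes in WBcel235, 6 of the 11 genes lie beside another gene of their own family. ugt-8 lies between ugt-67 and ugt-14, gst-12 between gst-14 and gst-16, and gst-7 between gst-6 and gst-8. ugt-2 is next to ugt-1, ugt-19 next to ugt-20 and gst-35 next to gst-34. None of these neighbours is among the 11 genes, and whether the probes also capture related transcripts was not tested.

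Other steps of detoxification were sparsely represented. Of 7 cytochrome P450 genes in the table, which act before conjugation, cyp-25A4 is the mean of 2 spots and was not tested. Among the other 6, 3 had higher and 3 lower means and 0 passed the test over all spots. The mean of cyp-34A5 was higher by 3.33-fold, or 2.58-fold after position adjustment, and that of cyp-25A1 by 2.77-fold, or 2.15-fold. Lower means were found for cyp-13A1, by 2.52-fold (2.33-fold after adjustment), and for cyp-14A1, by 2.23-fold (1.75-fold). Limma adjusted p for these genes lay between 0.461 and 0.622.

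Both export genes, of the ABC transporter family that carries conjugates and other compounds out of cells, had lower means and did not pass. mrp-6 had a mean of 15.91 ± 0.51 in the mutants (log2 signal, SD, n = 4) and 17.32 ± 0.31 in the wild type (SD, n = 3), with separate strains, and was 2.67-fold lower (limma adjusted p = 0.460). Adjusted for position it was 2.02-fold lower. pgp-7 was 1.54-fold lower with overlapping strains (n = 3 mutants; limma adjusted p = 0.70), and 1.98-fold lower with the adjustment. The flavin monooxygenase, short-chain, aldehyde and alcohol dehydrogenase, other conjugation and regulator lists had no named table row. The oxidative stress list had 1, ctl-3, a catalase gene whose row is the mean of 2 spots.

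Muscle and neuron markers had no named row either. The hypodermal markers had 3 rows, of which dpy-18 is the mean of 2 spots and was not tested. dpy-20 had a 2.18-fold higher and dpy-14 a 3.10-fold lower mean (limma adjusted p of 0.535 and 0.348). They lie in slide rows 10 and 2, and after position adjustment were 1.71-fold higher and 2.03-fold lower. Of 4 sperm genes, 3 had higher means in the mutants (nspd-7, nspd-10 and msp-78) and ssp-19 a lower one, with 0 passing the test over all spots and limma adjusted p between 0.492 and 0.661. Position adjustment took the folds from 6.2 to 4.6 for nspd-7 and from 3.25 to 2.44 for nspd-10. For msp-78 the fold went from 2.10 to 1.66, and for ssp-19 from 1.68 to 1.33. The part of other cell types in the ugt and gst differences was not tested.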

How the data were processed

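The arrays of 4 ahr-mutant and 3 wild-type samples were assigned by their strain labels. The authors deposited 1 linear intensity per spot, and a value table in which each entry is a ratio (a spot's signal scaled per array and per row, as comparison with the array files shows). For scanning, background treatment and the choice of table rows, details were not given in the sources used here. Per the file headers there are no background or detection columns. Blank, 0 and negative signals were treated as missing.

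Table rows were matched to spots by value: 1080 rows matched 1 spot within 0.0001 on the log2 scale (27 of them share a spot and were left unnamed), 151 matched the mean of 2 spots, and 59 matched neither. The supplied annotation names 961 rows, and all have an entry in the WBcel235 gene table. No genome build is stated for the array design, so no coordinates are given. ahr-mutant replicate 1, whose rank correlations with the other arrays were -0.0117 to 0.0354 as deposited, follows the order of source plates of 384 wells with small shifts. Its segments were placed by signal, and 349 of 354 positions known from exact table values inside them were found again. A segment that disagreed with such a position was set aside. After placing, the correlations were 0.680 to 0.810, against 0.632 to 0.804 among the other arrays. Segments were placed and kept by their correlation with those arrays, so these values are no separate check of the placing.

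After log2 transformation and quantile normalization, spots with at least 2 values per strain entered a two-sided limma fit without covariates (lmFit, eBayes; limma 3.58.1, R 4.3.3), with Benjamini-Hochberg adjustment over all 22511 spots and a threshold of 0.05. Placing and fitting were tested on simulated data. Exact permutation tests ran over the 35 splits of the 7 arrays. The number of arrays limits the precision. Alternatives were other scalings, normexp with an offset of 50, other filters, the position adjustments, the deposited table and leaving out each array. Every member is named; of other lists up to 4 genes with the smallest p are named, and all of a list of 4 or fewer. The members, lists and alternatives were chosen with earlier results of these data known.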

Additional observations from a re-analysis of the deposited data

Results flagged for a closer look

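In 2 of the 9 genes 1 mutant array stood far apart from the remaining mutants, which chance gives in about 1 of 20 such sets. ahr-mutant replicate 3 lay below the other mutants for ugt-8, at 15.99 on the normalized log2 scale, and its surrounding spots deviated by -1.06. With the local position adjustment it was at 17.05 and still the lowest. ahr-mutant replicate 2 lay below the other mutants for ugt-63, at 17.75, where the surrounding spots deviated by -0.41. With the adjustment it was at 18.16 and also the lowest. What part the position on the slide had in these values was not tested.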

How the results depend on the processing

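All 9 genes kept their direction and 0 passed the threshold under every alternative with a test, and 7 had lower means in each, except that 6 of 8 did where the dimmest spots, gst-35 among them, were left out. Over 22511 spots 2 were called. The count was 0 with median scaling, no scaling, normexp, quantile normalization after placing replicate 1, the dimmest spots left out, or 0 and negative signals set to the lowest positive one, and was between 0 and 0 when any 1 of the 7 arrays was left out without position adjustment; at an unadjusted p under 0.05 these alternatives had between 1176 and 2706 spots. The median log2 difference of the genes was between -0.71 and -0.55 with 1 array left out and -0.80 in the deposited table. Without scaling it was -0.228, where the median of all spots was 0.40 and 24.4% of spots were lower, against 48.8% when quantile normalized. Local adjustment without ahr-mutant replicate 1, added after the data were seen, called 4 spots, 0 of them among these genes, and left ugt-8 1.54-fold, ugt-54 1.62-fold and gst-12 1.63-fold lower. Labels give the strains no shared replicate numbers, so no pairing was fitted. The 1st percentile of signals was 15336 to 21255 units on the arrays, and a spot's own background was not used here, which limits what dim spots can show.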
